A study of Caenorhabditis elegans with 6 samples.

Results

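The *cyp* genes of *C. elegans* encode cytochrome P450 enzymes. They were taken as every gene of the deposited expression table whose name starts with cyp-, which gave 75 of 28641 genes. The study compared whole worms of the Bristol N2 wild type (WT) with worms carrying the *hj221* deletion of *alh-4* in that background, called *alh-4(-)*. *alh-4* encodes an aldehyde dehydrogenase that converts fatty aldehydes into fatty acids. All worms were synchronized, fed on *E. coli* OP50 at 20 °C and collected at the L4 larval stage, and RNA sequencing gave 3 libraries of each genotype. The mutant was represented by 1 deletion allele. In RNA from whole worms, fewer cells of a type and less RNA per cell cannot be told apart.

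Cytochrome P450 enzymes are heme proteins of the endoplasmic reticulum or the mitochondria that insert an oxygen atom into fat-soluble substrates such as fatty acids, sterols and foreign chemicals, and in the endoplasmic reticulum they take electrons from a P450 reductase. In mammals, the CYP4 enzymes hydroxylate fatty acids at the end of the chain, and many CYP2 and CYP3 enzymes oxidize drugs and toxins. Worm P450 genes are grouped by sequence into clans related to these, and several of those of the *cyp-14*, *cyp-34* and *cyp-35* families are expressed in the intestine and respond to foreign chemicals.

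The values were FPKM, read fragments scaled to the length of a gene's exons and to the fragments mapped in the library. No further scaling between libraries was applied in the main fit. The depth of each library is unknown from the table, so a gene with a value of 0 is only said to be listed at 0. Differences were tested with limma on log2(FPKM + 1) in 16225 genes whose mean FPKM reached 1, and the Benjamini-Hochberg adjustment ran over all of these. Adding 1 makes a log2 fold change smaller than the true one where levels are low.

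The libraries were not alike. In replicate 1 of WT and of *alh-4(-)*, 19102 and 17623 genes had a value above 0, against 21058 to 22670 in the other 4 libraries, and 11 and 12 *cyp* genes were listed at 0, against 2 to 5. The library of *alh-4(-)* replicate 1 held the lowest value of its genotype for 57 of the 67 tested *cyp* genes (85.1%, against 65.3% of all tested genes). The library of WT replicate 3 held the highest value of its genotype for 41 of them (61.2%, against 46.6%). The deleted gene had FPKM of 352, 291 and 336 in WT and of 33.7, 24.6 and 35.2 in *alh-4(-)*, which matched the labels. Markers of the intestine had summed FPKM of 9107 to 14057 in WT and of 7794 to 11413 in *alh-4(-)*. Most of these sums came from *act-5*, with 7695 to 12754 in WT and 6163 to 10334 in *alh-4(-)*. Markers of the hypodermis had summed FPKM of 778 to 960.0 in WT and of 514 to 988 in *alh-4(-)*. Of the 28 tested markers of 7 tissues, 0 differed at an unadjusted p under 0.05 by limma (against 4.97% of all tested genes), which for so few genes does not show equal tissue content, and none was listed at 0 in every library. In the neuron list, 2 of 4 markers were below the filter.

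Most *cyp* genes were detected. Of the 75, 59 had a value above 0 in every library, 16 were listed at 0 in at least 1 library, and 0 were listed at 0 in all 6. Mean FPKM over the 6 libraries was 100 or more for 12 genes, between 10 and 100 for 35 and between 1 and 10 for 20. The filter left out 8 members, namely *cyp-13A3*, *cyp-13B2*, *cyp-25A6*, *cyp-29A4*, *cyp-33B1*, *cyp-33C12*, *cyp-34A10* and *cyp-35A1*. The highest of their single values was 3.01 FPKM, for *cyp-35A1* in *alh-4(-)* replicate 2, and *cyp-34A10* was listed at 0 in all 3 *alh-4(-)* libraries and at 0, 1.42 and 1.44 FPKM in WT. The 3 genes with the highest mean FPKM were *cyp-37A1*, *cyp-43A1* and *cyp-29A2*.

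A few *cyp* genes were strongly higher in *alh-4(-)*, while most did not pass a test. At an adjusted p under 0.05 by limma, 4 of the 67 tested genes rose (5.97%, against 0.111% of all tested genes) and 0 fell (against 0.0308%). At a fold change over 2 together with an unadjusted p under 0.05, 10 were higher (14.9%, against 1.54%) and 5 were lower (7.46%, against 1.37%). The levels of the genotypes did not overlap for 15 genes that were higher (22.4%, against 5.97%) and for 2 that were lower (2.99%, against 3.25%). An unadjusted p under 0.05 was reached by 12 *cyp* genes in the higher and 5 in the lower direction, 17 of 67 in all, against 4.97% of all tested genes. The median log2 fold change of the tested *cyp* genes was 0.14, against 0.07 over all tested genes, and 41 of 67 had a positive one, against 58.0% of all.

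**Figure D1:**
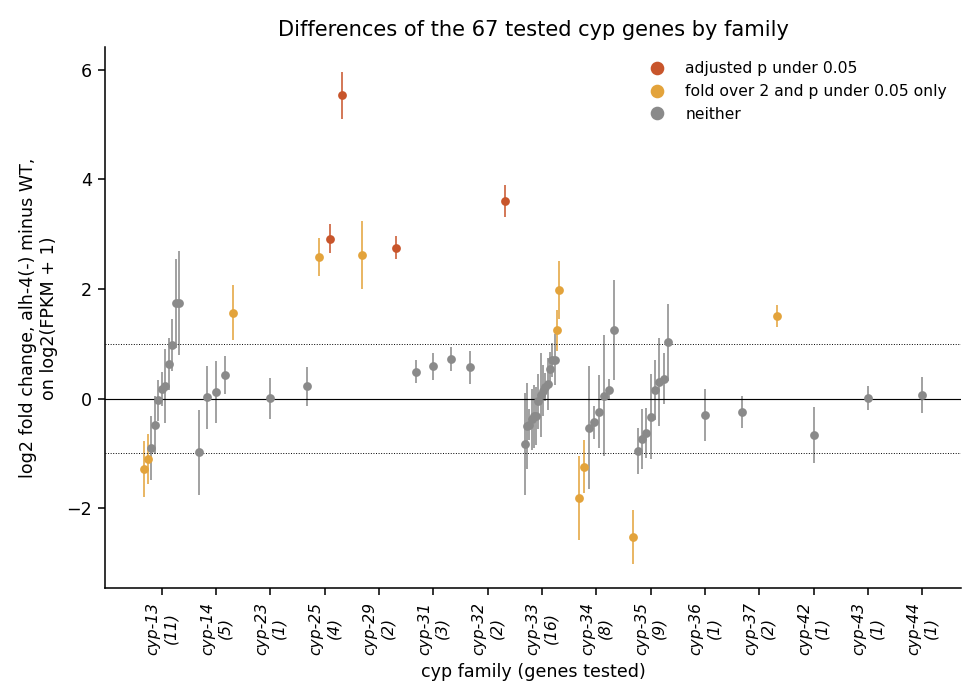
Log2 fold change (*alh-4(-)* minus WT, on log2(FPKM + 1)) of each of the 67 tested *cyp* genes, with bars for 1 standard error from limma, grouped by family with the number tested in brackets. Dotted lines mark a fold change of 2. The 4 genes past the adjusted threshold belong to *cyp-25*, *cyp-29* and *cyp-32*, and the largest log2 fold change is 5.53 for *cyp-25A3*.

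These counts depended on single libraries, and so did those over all genes. Without *alh-4(-)* replicate 3, 0 *cyp* genes passed the adjusted threshold by limma, with 13 at an unadjusted p under 0.05 (against 3.85% of all tested genes), and the number of all genes past the adjusted threshold fell from 23 to 6. In that fit the log2 fold changes of *cyp-25A1*, *cyp-25A3*, *cyp-29A2* and *cyp-32B1* were 2.83, 5.35, 2.66 and 3.63, against 2.91, 5.53, 2.75 and 3.60 with all libraries. The adjusted count was 1 of 9 genes called in all without *alh-4(-)* replicate 2, 2 of 9 without WT replicate 2 and 6 of 25 without *alh-4(-)* replicate 1. By fold change and unadjusted p, leaving out *alh-4(-)* replicate 1 gave 16 higher (against 4.50% of all tested genes) and 1 lower (against 1.23%). The count of lower genes was 3, 2 and 1 without WT replicate 1, 2 and 3, against 1.13%, 1.50% and 1.17% of all. Non-overlapping *cyp* genes without *alh-4(-)* replicate 1 numbered 36 higher (against 27.1% of all tested genes) and 2 lower (against 6.73%).

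The CYP4-like genes held the largest share of higher members. Of 11 such genes (*cyp-29*, *cyp-31*, *cyp-32*, *cyp-37* and *cyp-42*), 10 were tested. A positive log2 fold change was found in 8 of these, against 58.0% of all tested genes. By fold change and p, 4 were higher (against 1.54% of all tested genes) and 0 were lower (against 1.37%). The median log2 fold change of the 10 tested genes was 0.66. Levels did not overlap between the genotypes for 7 of them, all higher in *alh-4(-)* (against 5.97% of all tested genes). The summed FPKM of the CYP4-like genes was 2.73 times as high in *alh-4(-)* as in WT.

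*cyp-29A2* had FPKM of 102, 83.1 and 117 in WT and of 606, 665 and 767 in *alh-4(-)*. All 3 mutant libraries were far above all 3 WT libraries, and the mean level was 6.75 times as high. The log2 fold change was 2.75 (SE 0.21, adjusted p = 0.00625 by limma), and the adjusted p was 0.0668 without *alh-4(-)* replicate 3. *cyp-29A3*, whose enzyme has been linked in worms to the oxygenation of polyunsaturated fatty acids, had FPKM of 9.58, 21.0 and 12.1 in WT and of 32.3, 142 and 147 in *alh-4(-)*. Its genotypes did not overlap, but *alh-4(-)* replicate 1 lay much nearer to WT than the other mutant libraries did, and the log2 fold change of 2.62 (SE 0.61) had an adjusted p of 0.431 by limma. The remaining member, *cyp-29A4*, stayed under 1 FPKM in every library.

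*cyp-32B1* had FPKM of 11.4, 12.7 and 22.5 in WT and of 204, 187 and 183 in *alh-4(-)*. The mutant libraries were close to each other, with a mean of 191 ± 10.8 FPKM (SD, n = 3) against 15.5 ± 6.07. The log2 fold change was 3.60 (SE 0.29, adjusted p = 0.00737 by limma), and the adjusted p reached 0.071 without WT replicate 2. Its family member *cyp-32A1* had FPKM of 15.9, 16.7 and 16.4 in WT and of 17.1, 33.2 and 26.4 in *alh-4(-)*, so its genotypes did not overlap although the lowest mutant library was only just above WT. Its log2 fold change of 0.57 (SE 0.30) did not pass the test.

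*cyp-37A1* was the most abundant *cyp* gene over all 6 libraries, with FPKM of 321, 298 and 293 in WT and of 888, 702 and 1029 in *alh-4(-)*. The WT libraries differed little, every mutant library was above them, and the mean was 2.87 times as high. The log2 fold change of 1.50 (SE 0.20) did not pass the adjusted threshold (adjusted p = 0.0676 by limma). The adjusted p was under 0.05 in 1 of 15 alternative fits and reached 0.34 without *alh-4(-)* replicate 3. Its exons share 28 of 1568 bases with F01D5.8, a gene on the opposite strand whose FPKM was 695 to 828 in WT and 596 to 802 in *alh-4(-)*, with a log2 fold change of -0.15. *cyp-37B1* and *cyp-42A1* had log2 fold changes of -0.24 and -0.66 and did not pass the test.

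The *cyp-31A* genes were abundant and had higher means in *alh-4(-)*. *cyp-31A2* and *cyp-31A3* are known to act with the P450 reductase EMB-8 in building the eggshell. Of the 3 *cyp-31A* genes, 0 passed either threshold. An unadjusted p under 0.05 by limma was reached by 2 of them, against 4.97% of all tested genes. *cyp-31A2* had FPKM of 239, 276 and 317 in WT and of 334, 434 and 402 in *alh-4(-)*, without overlap, and a log2 fold change of 0.49 (adjusted p = 0.982 by limma). *cyp-31A3* had 123, 148 and 174 against 168, 240.2 and 268, where the lowest mutant library lay below the highest WT library. *cyp-31A5* had 46.4, 41.5 and 56.2 against 77.8, 73.2 and 88.2, without overlap, and a log2 fold change of 0.73 (adjusted p = 0.645 by limma). The 4 germ line markers all had positive log2 fold changes (against 58.0% of all tested genes), and 0 had an unadjusted p under 0.05 by limma. Their summed FPKM was 1405 to 2170 in WT and 2005 to 2418 in *alh-4(-)*. *mex-5* and *gld-1* were higher without overlap between genotypes (against 5.97% of all tested genes). Of the 3 sperm markers, 1 had a positive log2 fold change. The part of these markers in the *cyp-31A* values was not tested.

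Among members with an unadjusted p under 0.05, *cyp-31A5* at 0.73 was the nearest outside the fold change threshold of 2 and *cyp-13A2* at -1.10 the nearest inside it.

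**Figure D2:**
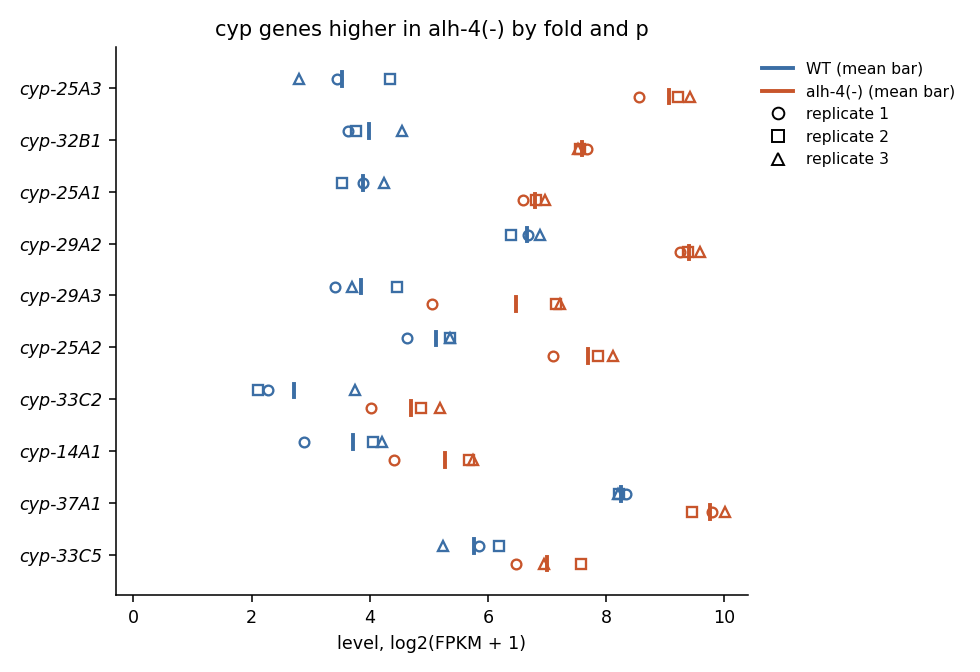
Level, as log2(FPKM + 1), of the 10 *cyp* genes higher by fold change and unadjusted p, in each WT and *alh-4(-)* library. Symbols stand for replicates and vertical bars for genotype means. Every mutant library lies above every WT library for each of the 10 genes. For 8 of them *alh-4(-)* replicate 1 is the lowest mutant library (against 65.3% of all tested genes).

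The CYP3-like genes comprised 19 members (*cyp-13*, *cyp-25* and *cyp-43*), of which 16 were tested. By fold change and p, 3 were higher (against 1.54% of all tested genes) and 2 lower (against 1.37%). All 3 higher genes belonged to *cyp-25A*.

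*cyp-25A3* showed the largest difference of any *cyp* gene. It had FPKM of 9.86, 19.3 and 6.02 in WT and of 376, 590.1 and 686 in *alh-4(-)*. A gene of low level in WT thus became one of the most abundant members in the mutant, with a mean 47.0 times as high. The log2 fold change was 5.53 (SE 0.43, adjusted p = 0.00625 by limma), and the adjusted p was under 0.05 in 13 of 15 alternative fits, with 0.0553 as the highest when both replicate 1 libraries were left out.

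*cyp-25A1* had FPKM of 13.7, 10.6 and 17.9 in WT and of 95.8, 112 and 124 in *alh-4(-)*. The levels were separate by a wide margin, and the log2 fold change was 2.91 (SE 0.26, adjusted p = 0.0127 by limma, and 0.118 without *alh-4(-)* replicate 3). *cyp-25A2* had 23.8, 39.9 and 40.0 against 136, 231 and 277, also without overlap. Its log2 fold change of 2.58 (SE 0.34) had an adjusted p of 0.0676 by limma, and the adjusted p fell to 0.00398 with array quality weights and reached 0.312 without *alh-4(-)* replicate 2.

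These 3 genes are neighbours on chromosome III in the WBcel235 annotation. *cyp-25A4* follows after 3 other protein-coding genes, and it had FPKM of 12, 19.3 and 12.9 in WT and of 10.8, 21.0 and 21.6 in *alh-4(-)*. It began in WT at a level like that of *cyp-25A1* and *cyp-25A3* and overlapped between genotypes, with a log2 fold change of 0.22 (SE 0.36) that did not pass the test. Within each library, log2(FPKM + 1) of *cyp-25A3* minus that of *cyp-25A4* was -0.26, -0.00 and -0.99 in WT and 5.0, 4.75 and 4.93 in *alh-4(-)*. The mean of this difference was higher by 5.31 on the log2 scale in *alh-4(-)*. For *cyp-25A1* and *cyp-25A2* against *cyp-25A4* it was higher by 2.69 and 2.35. These genes were set side by side with their fold changes known, so the differences are a description and were not tested. *cyp-25A6*, on chromosome IV, was at most 0.871 FPKM.

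*cyp-43A1*, the only gene of its family, was among the most abundant members and was level between genotypes. It had FPKM of 462, 406 and 557 in WT and of 378, 514 and 546 in *alh-4(-)*, and the log2 fold change was 0.01 (SE 0.22).

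The *cyp-13* genes differed in both directions. Of 11 tested, 6 had a positive and 5 a negative log2 fold change. By fold change and p, 2 were lower (against 1.37% of all tested genes). *cyp-13A4* had FPKM of 5.45, 7.65 and 4.69 in WT and of 0.358, 2.94 and 3.15 in *alh-4(-)*, without overlap, and a log2 fold change of -1.28 (SE 0.51, adjusted p = 0.963 by limma). *cyp-13A2* had 137, 38.3 and 82.7 against 27.9, 40.0 and 37.9. Its WT libraries differed more from each other than the mutant ones, WT replicate 2 lay within the mutant range, and the log2 fold change of -1.10 had an adjusted p of 0.982 by limma. *cyp-13A10* and *cyp-13A8* had the largest positive log2 fold changes of the family, both 1.74 (SE 0.94 and 0.81). *cyp-13A10* had 15.6, 4.11 and 0.729 FPKM in WT and 5.30, 35.3 and 23.1 in *alh-4(-)*, so *alh-4(-)* replicate 1 sat inside the WT range and the genotypes overlapped. That library was the lowest of its genotype for all 11 tested *cyp-13* genes (against 65.3% of all tested genes). The summed FPKM of the 11 *cyp-13A* genes was 266 ± 44.6 in WT and 294 ± 142 in *alh-4(-)* (SD, n = 3).

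The CYP2-like genes are the largest group, with 43 members (*cyp-14*, *cyp-33*, *cyp-34*, *cyp-35* and *cyp-36*) and 39 tested. By fold change and p, 3 were higher (against 1.54% of all tested genes) and 3 lower (against 1.37%). By limma, 0 passed the adjusted threshold (against 0.111% higher and 0.0308% lower) and 6 had an unadjusted p under 0.05 (against 4.97%). The median log2 fold change of the 39 tested genes was 0.02.

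The 3 higher genes were *cyp-14A1*, *cyp-33C2* and *cyp-33C5*. *cyp-14A1* had FPKM of 6.38, 15.5 and 17.6 in WT and of 20.3, 50.5 and 52.5 in *alh-4(-)*. The lowest mutant library was just above the highest WT library, and the log2 fold change was 1.56 (SE 0.50, adjusted p = 0.731 by limma). *cyp-33C2* had 3.83, 3.31 and 12.5 against 15.2, 28.3 and 35.5, with a log2 fold change of 1.98 (SE 0.53, adjusted p = 0.512). *cyp-33C5* had 56.4, 71.8 and 36.8 against 87.6, 190.0 and 122, with a log2 fold change of 1.24 (SE 0.37, adjusted p = 0.626). None of these genes overlapped between genotypes, and none passed the adjusted threshold in any alternative fit.

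Genes of the same subfamilies had other values. *cyp-14A2*, which shares a run of 4 genes on chromosome X with *cyp-14A1*, had FPKM of 31.6, 73.1 and 143 in WT and of 11.3, 51.8 and 68.5 in *alh-4(-)*, with a log2 fold change of -0.98 (SE 0.77) that did not pass the test. The genotypes overlapped, and in both the replicate 1 library was the lowest. Of the 10 tested *cyp-33C* genes, 5 had a positive and 5 a negative log2 fold change, and the subfamily median was 0.00. *cyp-33C11* was at the low end with -0.83 (SE 0.93), with FPKM of 10.1, 7.12 and 6.78 in WT and of 0, 13 and 7.92 in *alh-4(-)*, so its negative value came from the 1 library listed at 0. In *cyp-33E*, whose member CYP-33E2 is known to oxygenate polyunsaturated fatty acids, all 3 log2 fold changes were positive, from 0.14 for *cyp-33E1* to 0.71 for *cyp-33E3*, and all 3 genes overlapped between genotypes. The differences between these genes were not tested.

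*cyp-35A3* had the most negative log2 fold change of the tested *cyp* genes. It had FPKM of 57.7, 48.4 and 118.5 in WT and of 5.92, 19 and 12.1 in *alh-4(-)*. All mutant libraries lay below all WT libraries, and the mean was 0.165 times that of WT. The log2 fold change was -2.53 (SE 0.49, adjusted p = 0.244 by limma), and it was -2.12 without *alh-4(-)* replicate 1.

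The other tested *cyp-35A* genes had negative log2 fold changes that did not pass the test. *cyp-35A2*, a gene induced by many foreign chemicals and linked to fat storage in worms, had FPKM of 183, 272 and 481 in WT and of 104, 243 and 254 in *alh-4(-)*, with overlap and a log2 fold change of -0.63 (SE 0.46). *cyp-35A5* and *cyp-35A4* had -0.73 and -0.33, and the latter turned to 0.47 without *alh-4(-)* replicate 1. *cyp-35C1* had 136, 199 and 338 against 67.7, 153 and 119.7, and its log2 fold change was -0.95 (SE 0.42). The 3 *cyp-35B* genes, all under 7 FPKM, had positive values from 0.29 for *cyp-35B3* to 1.03 for *cyp-35B2*. *cyp-35B3* was listed at 0 in replicate 1 of both genotypes. *cyp-35B2* was listed at 0 in WT replicate 1 and had 0.466 FPKM in *alh-4(-)* replicate 1.

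The libraries within a genotype also ordered the *cyp-35* genes in a common way. WT replicate 3 was the highest WT library for all 9 tested *cyp-35* genes (against 46.6% of all tested genes). WT replicate 1 was the lowest for 8 of them (against 46.6%), and *alh-4(-)* replicate 1 the lowest mutant library for all 9 (against 65.3%). This was not particular to *cyp-35*, since all 5 tested *cyp-14* genes were also lowest in replicate 1 of each genotype. Summed FPKM of the *cyp-35* family was 411, 600.1 and 1038 in WT and 198, 498 and 461 in *alh-4(-)*, so the spread among WT libraries was larger than the gap between WT replicate 2 and the mutant libraries 2 and 3. Of the 6 intestine markers, *elt-2*, *elt-7*, *ges-1* and *vha-6* were highest in WT replicate 3 among the WT libraries (against 46.6% of all tested genes). The same 4 were lowest in *alh-4(-)* replicate 1 among the mutant libraries, against 65.3% of all tested genes. *act-5* and *ifb-2* followed neither order. The part of these markers in the *cyp-35* values was not tested.

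**Figure D3:**
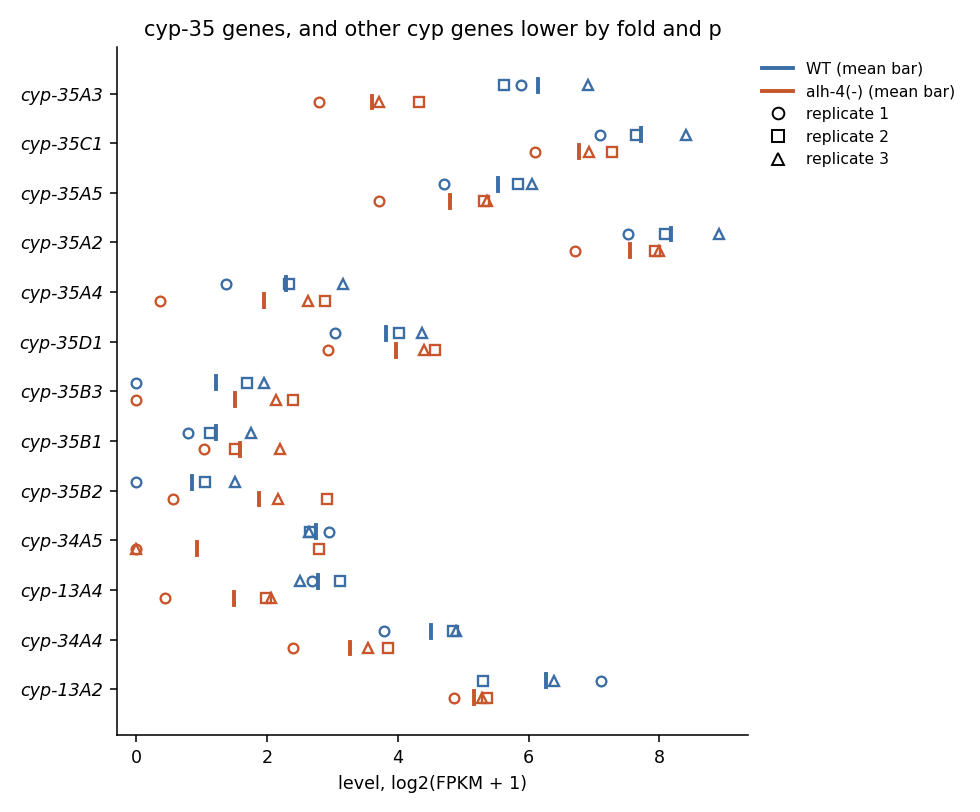
Level, as log2(FPKM + 1), of the 9 tested *cyp-35* genes and of the other 4 *cyp* genes lower by fold change and unadjusted p, in each WT and *alh-4(-)* library. Symbols stand for replicates and vertical bars for genotype means. *cyp-35A3* and *cyp-13A4* are the genes without overlap between genotypes, and *cyp-34A5* is listed at 0 in 2 mutant libraries.

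In *cyp-34*, 2 of 8 tested genes were lower by fold change and p (against 1.37% of all tested genes), and both overlapped between genotypes. *cyp-34A4* had FPKM of 12.8, 27.8 and 28.5 in WT and of 4.25, 13.4 and 10.7 in *alh-4(-)*, with a log2 fold change of -1.25 (SE 0.49, adjusted p = 0.936 by limma). *cyp-34A5* had 6.72, 5.30 and 5.23 in WT and was listed at 0, 5.96 and 0 in *alh-4(-)*. The mutant library with a value was inside the WT range, so the fitted log2 fold change of -1.82 rested on the libraries listed at 0, and it was -3.89 with a pseudocount of 0.1. *cyp-34A8* was the most abundant gene of the family, at 125 to 159 FPKM in WT and 144 to 162 in *alh-4(-)*. *cyp-34A7* had the highest log2 fold change of the family at 1.25 (SE 0.91), with 0, 1.12 and 1.64 FPKM in WT and 0, 6.12 and 9.53 in *alh-4(-)*. It was listed at 0 in replicate 1 of both genotypes, and the genotypes overlapped.

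The remaining genes stood alone in their families. *cyp-44A1*, the mitochondrial P450 of the worm, had FPKM of 93.3, 101 and 160.0 in WT and of 81.1, 151 and 140.4 in *alh-4(-)*, with a log2 fold change of 0.06. *cyp-36A1* and *cyp-23A1* had low levels and log2 fold changes of -0.30 and 0.00. All 3 overlapped between genotypes.

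Many *cyp* genes lie in groups along the chromosomes. In the WBcel235 annotation, 74 of the 75 genes were found by name, all protein-coding, and 44 of them lay in 12 runs with at most 2 other protein-coding genes between neighbours. In the *cyp-25A* run all 3 genes were higher by fold change and p. Of all tested genes, 1.54% were higher and 1.37% lower by this rule. The run of 8 *cyp-13A* genes on chromosome II held 2 lower and 0 higher genes among 7 tested. The run of 10 *cyp-35* and *cyp-34* genes on chromosome V held 1 lower and 0 higher genes among 9 tested, and that of 5 *cyp-33C* genes held 1 higher gene. *cyp-32B1* shares a run with *cyp-33C12*, which was at most 0.521 FPKM in any library. *cyp-35A3* shares one with *cyp-35A4*, whose log2 fold change was -0.33.

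**Figure D4:**
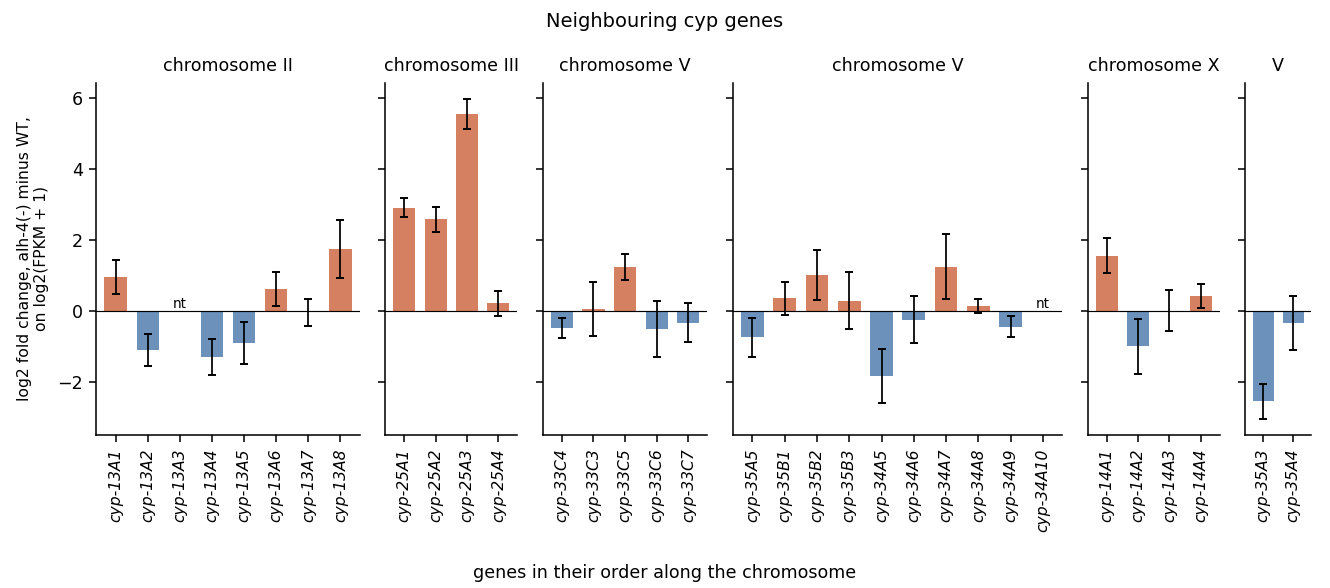
Log2 fold change (*alh-4(-)* minus WT, on log2(FPKM + 1)) of *cyp* genes that lie together, in their order along each chromosome, with bars for 1 standard error from limma. The panels hold the runs of at least 3 genes, *cyp-25A4* beyond its run, and the pair *cyp-35A3* and *cyp-35A4*. Genes below the filter are marked nt. The 3 neighbours *cyp-25A1*, *cyp-25A2* and *cyp-25A3* stand at 2.91, 2.58 and 5.53, and *cyp-25A4* at 0.22.

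The higher genes made up a large part of the *cyp* transcripts in the mutant. Summed FPKM of the 10 genes higher by fold change and p was 558, 575 and 575 in WT and 2460.5, 2898 and 3426 in *alh-4(-)*. The other 65 genes summed to 2303, 2536 and 3494 in WT and to 1837, 3269 and 3185 in *alh-4(-)*. Since the 10 genes were chosen on this comparison, these sums are a description and were not tested. Of all *cyp* FPKM, the 10 genes held 19.5%, 18.5% and 14.1% in WT and 57.3%, 47.0% and 51.8% in *alh-4(-)*. Over the other 65 genes the ratio of the means was 0.995, with a spread of 631 (SD, n = 3) among the WT and 804 among the *alh-4(-)* libraries.

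**Figure D5:**
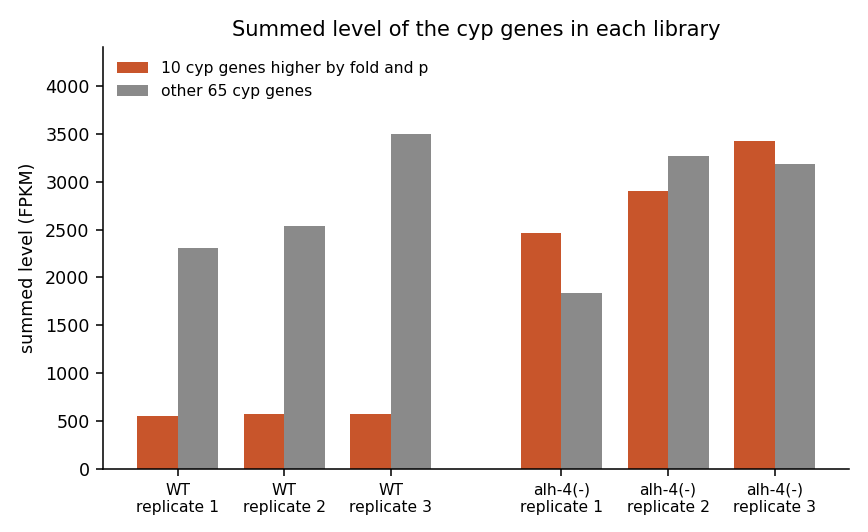
Summed FPKM in each library of the 10 *cyp* genes higher by fold change and unadjusted p (orange) and of the other 65 *cyp* genes (grey). The 10 genes sum to at most 575 in WT and at least 2460.5 in *alh-4(-)*, and the other 65 overlap between the genotypes.

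The genes of P450 partners were described from a short list. The list held the P450 reductase gene *emb-8*, genes of cytochrome b5 and genes of other electron donors or partners. It also held *daf-9*, the P450 gene of the dafachronic acid pathway. Of the 7 genes, 0 had an unadjusted p under 0.05 by limma, against 4.97% of all tested genes, so a list this short says little. *emb-8* had FPKM of 171, 252 and 259 in WT and of 248, 307 and 393 in *alh-4(-)*, with overlap and a log2 fold change of 0.47 (SE 0.26). *cytb-5.1*, *hpo-19* and Y62E10A.6 had 0.39, 0.31 and 0.29, and *cytb-5.2*, Y73F8A.27 and *daf-9* had -0.13, -0.03 and -0.58.

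A list of 19 genes held regulators known to act on P450, detoxification or lipid genes in worms. Of these, 2 were higher at an unadjusted p under 0.05 by limma (against 4.97% of all tested genes in either direction). The adjusted threshold was passed by 0 of the 19. *pqm-1*, an intestinal zinc finger factor of stress and metabolic genes, had FPKM of 53.3, 54.1 and 59.6 in WT and of 92.2, 122 and 118 in *alh-4(-)*, without overlap, and a log2 fold change of 0.97 (SE 0.21, adjusted p = 0.339 by limma). *daf-16*, the FOXO factor of insulin signalling, had 168, 185 and 239 against 240.2, 371 and 321, with the lowest mutant library only just above WT and a log2 fold change of 0.65 (adjusted p = 0.910). The nuclear receptor genes *nhr-49* and *nhr-79*, which the study followed, had log2 fold changes of 0.51 (SE 0.22) and 0.77 (SE 0.36), and neither passed the test. *nhr-79* did not overlap between genotypes, with 2.45, 3.77 and 6.12 FPKM in WT and 6.80, 7.88 and 7.44 in *alh-4(-)*.

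Some *cyp* values carry a limit from how reads are assigned. Exons of 8 *cyp* genes overlap another gene by 20 to 147 bases in the annotation, on the opposite strand in 7, and the sources used here do not say that strand was used in counting. How reads shared between close relatives within a subfamily were divided is not given in the sources used here.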

How the data were processed

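RNA sequencing libraries of whole L4 worms, 3 per genotype, were used. The authors prepared them with a Smart-seq2 type method, mapped reads to ce10, and deposited FPKM per gene, with a column for each library. The libraries had been pooled for the sequencing run. The submitters' processing notes name bcl2fastq 2.19, Trimmomatic 0.36, HISAT2 2.1.0, SAMtools 1.3 and StringTie 1.3.3. No counts were used, and depth is unknown. Genotypes and replicates came from the library titles. Number of table columns left unused: 0.

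The genotypes were compared on log2(FPKM + 1) by limma 3.58.1 (lmFit, then eBayes with a mean-variance trend), run in R 4.3.3. The script was tested on simulated data. Tables and plots used Python 3.11.15, NumPy 2.4.6, pandas 2.3.3 and Matplotlib 3.10.9. The study's methods name a negative binomial test, which needs counts. Named genes were those past either threshold, the 3 most abundant, the highest and lowest log2 fold change in each subfamily of at least 3, those nearest the fold threshold, all partners, and selected regulators. Genes discussed beyond this rule were chosen after their values were seen. Members, lists and clans were chosen with earlier results of these data known. Positions came from WBcel235, and only gene order, strand and overlap were used, since ce10 is another release. Gene sequences were not used here. The alternatives were another pseudocount (0.1), other filters, scalings and thresholds, no trend, library weights, the replicate number as a block, and leaving out libraries.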

Additional observations from a re-analysis of the deposited data

How the results depend on the processing

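Of 413 log2 fold changes of 28 named *cyp* genes in alternative fits, 372 kept their direction and their side of the adjusted threshold of limma, 14 lost the call, 8 gained it and 19 reversed. Only the 4 genes called with all libraries could lose the call. Their adjusted p by limma was under 0.05 in 10 (*cyp-25A1*), 13 (*cyp-25A3*), 12 (*cyp-29A2*) and 11 (*cyp-32B1*) of 15 alternative fits. The ratio of mean FPKM, which has no test, kept the direction of all 28. Array quality weights were 0.244, 1.65 and 4.29 for *alh-4(-)* replicates 1, 2 and 3, and 0.744, 0.834 and 0.933 for those of WT. With these weights, 7 *cyp* genes were higher by adjusted p (with 91 genes called in all, against 23). By fold change and p, 17 were higher and 1 lower (against 3.86% and 1.65% of all tested genes). With both replicate 1 libraries left out, the counts were 0 (9 genes in all), 16 (3.17%) and 2 (1.36%). Lower genes by fold change and p numbered 3 without a trend, 3 at a mean FPKM of at least 10 and 1 without a filter. The shares of all tested genes in these settings were 1.32%, 1.15% and 0.736%. A fold change over 2 with an adjusted p under 0.05 gave 4 higher and 0 lower. Leaving out 1 library at a time gave 0 to 6 higher by adjusted p (against 0.0308% to 0.129% of all tested genes). By fold change and p it gave 8 to 16 higher (against 1.09% to 4.50%) and 1 to 5 lower (against 1.13% to 1.97%). Without overlap it gave 15 to 36 higher (against 7.71% to 27.1%) and 2 to 9 lower (against 6.43% to 8.06%). With both replicate 1 libraries left out, 38 higher and 9 lower had no overlap, against 30.6% and 10.5% of all tested genes. The counts without overlap under these settings were chosen after seeing the data. Separating fewer libraries is an easier condition.

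Reversed log2 fold changes lay between -0.31 and 0.49. *cyp-33C11*, at -0.83 with all libraries, was 0.076 with array weights and 0.49 without both replicate 1 libraries. It ranged from -1.57 to 0.33 over single libraries left out. *cyp-35A4*, at -0.33 with all libraries, was 0.25 with array weights and 0.0092 without both replicate 1 libraries, with a range of -0.79 to 0.47. *cyp-43A1* was -0.043 with quantile normalization and -0.075 with upper quartile scaling, with a range of -0.10 to 0.17. *cyp-33E1* ranged from -0.21 to 0.66 and *cyp-35B3* from -0.31 to 1.05. The cause was not tested. The normalizations moved the median of all tested genes from 0.07 to 0.02 (quantile) and -0.01 (upper quartile).

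In the labels, same-numbered libraries share only a number. Their deviations from the genotype means correlated at 0.314, 0.278 and 0.00487 for replicates 1, 2 and 3, and 4 of 6 libraries correlated best with their own number. With the replicate block, 5 of 15 genes past the adjusted threshold were *cyp* genes, all higher (*cyp-25A2* joined at 0.0327 by limma). By fold change and p, 11 *cyp* genes were higher (against 1.97% of all tested genes) and 4 lower (against 1.50%).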
